A study of Mus musculus with 18 samples.

Results

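The genes described here encode 10 clotting proteins made by hepatocytes: prothrombin (F2), factors V, VII, IX, X, XI and XII (F5, F7, F9, F10, F11, F12), the B subunit of factor XIII (F13b), plasma prekallikrein (Klkb1) and antithrombin (Serpinc1). The list was set by gene name, with earlier results of these data known. Every array probe whose transcript identifier maps to 1 of the 10 symbols was used, which gave 13 probes for the 10 genes, of 24808 genes tested in all. All 10 passed the filter on dim probes, being well above background on all 9 arrays. Plasma clotting runs as a chain of proteases, each secreted as an inactive precursor and activated by the one before it. The liver makes most of these precursors as well as inhibitors such as antithrombin. Factors VII, IX, X and prothrombin also need vitamin K-dependent carboxylation before they can bind membranes.

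The livers came from male C57BL/6 mice of 6 weeks that were fasted for 12 h and then given saline (control) or monocrotaline at 270 mg/kg (MCT 270) or 330 mg/kg (MCT 330), once and by the intragastric route. There were 8 mice per group, and the livers were taken 48 h after dosing. Monocrotaline is a pyrrolizidine alkaloid that liver cytochrome P450 enzymes convert to a reactive pyrrole, and it is used in rodents as a model of injury to the sinusoidal endothelium. Whole-liver RNA was hybridised to 9 single-colour arrays, labelled as 3 mice per group.

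The 9 arrays behaved as fewer than 9 independent samples. The log2 difference between replicates 2 and 3 had an SD between 0.0297 and 0.0381 over probes in the 3 groups, less than repeated spots of a probe on 1 array, and were counted as 1 sample. Replicate 1 of MCT 330 lay slightly above the limit set for averaging (a ratio to the noise of repeated spots of up to 1.13, against 1) and was averaged in all the same, as the choice that gives larger p-values. This left 1 MCT 330 sample, 2 MCT 270 samples and 2 control samples. All p-values rest on the spread between the 2 samples within control and within MCT 270, moderated over all genes by limma. The spread of MCT 330, now a single sample, was taken from the other groups. The MCT 330 arrays were scanned in other runs than all MCT 270 and control arrays, so scan run and the 330 mg/kg dose cannot be told apart. Between 63.0% and 80.3% of probes lay well above background per array, no spot was saturated, and the number of arrays limits the precision. Values below are log2 signal over the 75th percentile of the array. They are levels per unit of liver RNA: fewer hepatocytes and less RNA per hepatocyte cannot be told apart.

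At 330 mg/kg, 5 of the 10 genes fell against control: factor V, prekallikrein, the factor XIII B subunit, factor IX and antithrombin, to between 31.7% and 55.8% of the control level. None of the 10 rose. Of all 24808 genes tested, 24.0% fell and 9.48% rose by the same test (limma, Benjamini-Hochberg adjusted p under 0.05). All 10 estimates lay below 0, from -0.09 for F11 to -1.66 for F5, and in all 10 genes every MCT 330 array was below every control array, which held for 50.1% of genes tested. The median log2 fold change of the 10 was -0.84, against -0.26 over all genes, a difference of -0.59. F5, Klkb1 and F13b passed under each of 18 other ways of processing. F9 passed in 13 and Serpinc1 in 11 of the 18, and with quantile normalization, with scaling by the array median or without the filter on dim probes only F5, Klkb1 and F13b remained. With the 9 arrays as separate samples, or with MCT 330 replicate 1 as a sample of its own, 9 of the 10 were lower, all but F11, as were 47.2% and 37.0% of all genes in these fits. Scaling by the median also turned the balance of calls over all genes, to 3436 lower and 4102 higher, against 5962 lower and 2352 higher here.

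**Figure D1:**
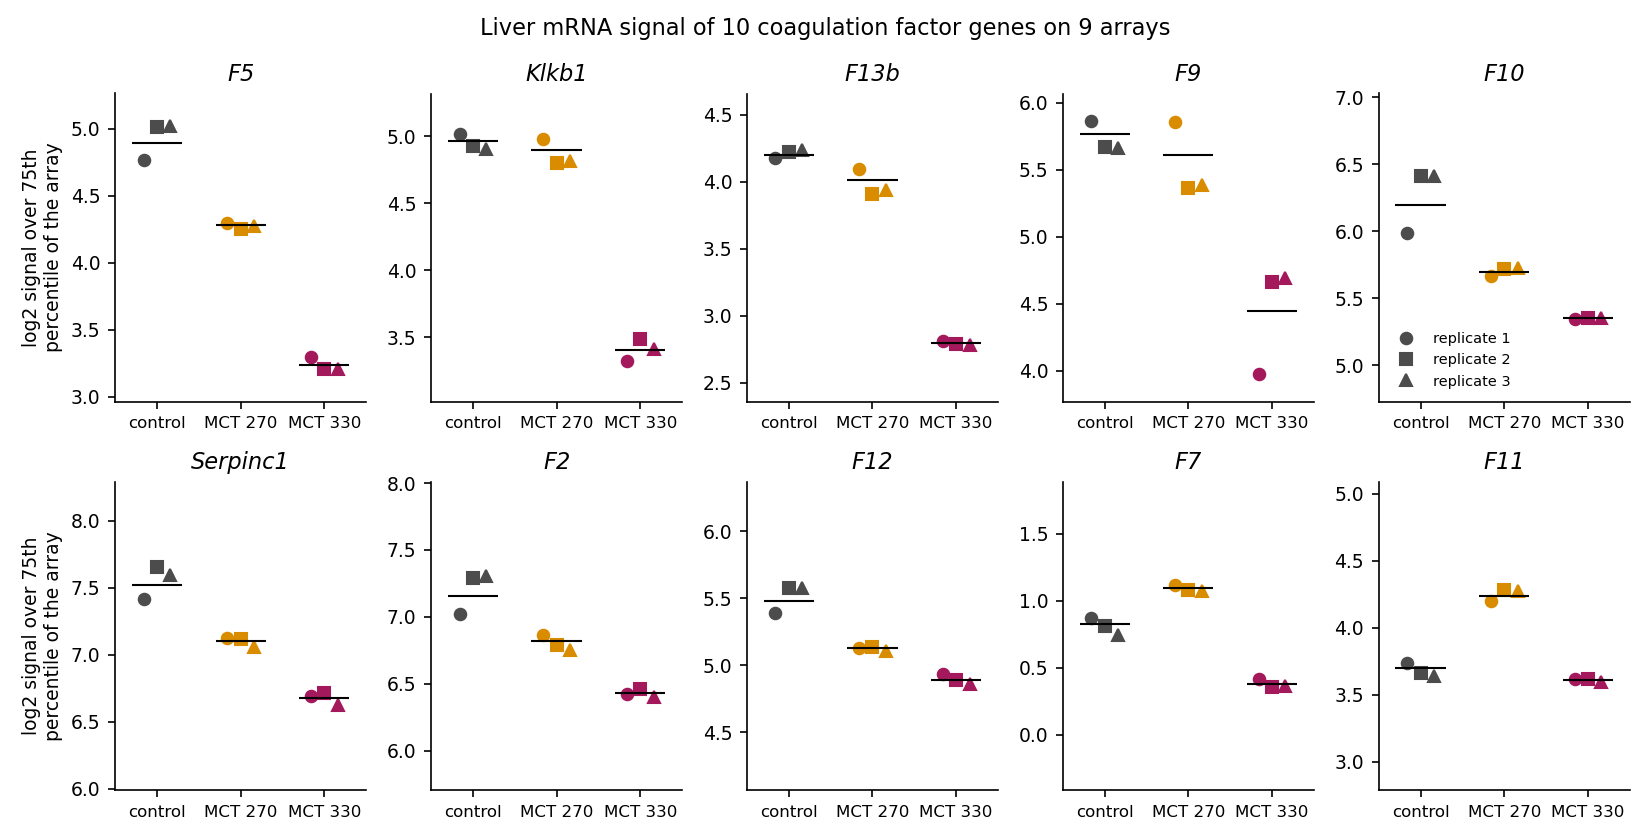
Log2 signal over the 75th percentile of the array (vertical axis, spanning the same width in each panel) for the 10 genes on the 9 arrays, by group; markers show replicates 1, 2 and 3 and lines the group mean over samples. F5, Klkb1, F13b and F9 were lowest at MCT 330 by over 1 log2 unit, whereas F7 and F11 were highest at MCT 270.

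The cofactor and the proteases of the common pathway read lowest at MCT 330, with MCT 270 between that dose and control. Factor V is the cofactor with which activated factor X cleaves prothrombin. F5 read 4.77, 5.01 and 5.02 in controls, 4.30, 4.25 and 4.27 at MCT 270, and 3.30, 3.20 and 3.21 at MCT 330. The 3 groups did not overlap, with MCT 270 between the others, as also in F2, F10, F12, F13b and Serpinc1. Over all genes, every MCT 270 array was below every control array in 25.2%. Every MCT 330 array was below every MCT 270 array in 51.3%. The share of genes with both was not computed. The log2 fold change of F5 against control was -1.66 ± 0.21 at MCT 330 (SE, n = 1 and 2 samples, limma adjusted p = 0.0104) and -0.61 ± 0.17 at MCT 270 (n = 2 and 2, limma adjusted p = 0.179, unadjusted p = 0.0173).

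Prothrombin, the precursor of thrombin, and factor X, the protease that activates it, followed the same order. F2 read 7.02, 7.29 and 7.31 in controls, 6.87, 6.79 and 6.76 at MCT 270, and 6.43, 6.46 and 6.41 at MCT 330. F10 read 5.99, 6.41 and 6.41 in controls, 5.67, 5.72 and 5.73 at MCT 270, and 5.35, 5.35 and 5.35 at MCT 330. In both genes the groups did not overlap and control replicate 1 was the lowest control. At MCT 330 the estimates were -0.73 ± 0.22 for F2 (limma adjusted p = 0.0609) and -0.85 ± 0.25 for F10 (limma adjusted p = 0.0586), both short of the threshold, and at MCT 270 they were -0.34 ± 0.18 and -0.50 ± 0.20.

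F10 has a second probe, designed on transcript NM_001242368 where the first was designed on NM_007972, and its changes were larger. It differed from control by -1.52 ± 0.21 at MCT 270 (limma over 29932 probes, adjusted p = 0.0903) and by -2.05 ± 0.25 at MCT 330 (limma adjusted p = 0.0104). The choice of probe therefore decided whether F10 passed at 330 mg/kg. F5 and F7 each have 2 probes on 1 transcript. Those of F5 gave -1.31 ± 0.22 for the second probe at MCT 330, which also passed (limma adjusted p = 0.0162), and both probes of F7 lay at -0.45 there. Against MCT 270, the second probe of F7 passed (-0.87 ± 0.19, limma adjusted p = 0.0397), whereas the first did not (-0.72 ± 0.19).

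**Figure D2:**
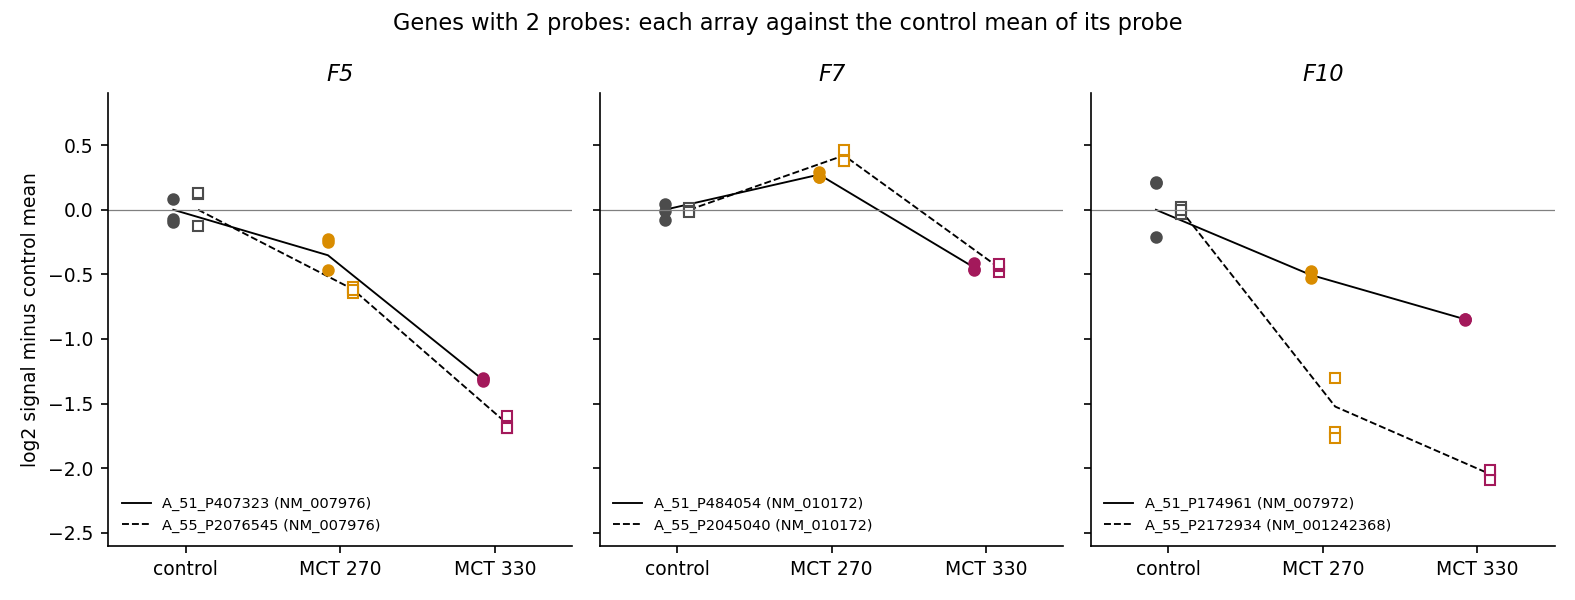
Log2 signal of each array minus the control mean of the same probe (vertical axis) for the 3 genes with 2 probes, by group; filled circles and solid lines show 1 probe, open squares and dashed lines the other, with lines through group means. The F10 probe on NM_001242368 lay at -1.52 at MCT 270 and -2.05 at MCT 330, below the probe on NM_007972 at -0.50 and -0.85.

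Factor IX is the protease that activates factor X with factor VIII as cofactor, and it is the factor missing in haemophilia B. F9 read 5.87, 5.67 and 5.66 in controls, 5.85, 5.36 and 5.38 at MCT 270, and 3.97, 4.67 and 4.69 at MCT 330. Controls and MCT 270 overlapped, and all MCT 330 arrays were lower. F9 was also the gene whose MCT 330 arrays disagreed most, with replicate 1 at 0.72 below the highest of the others. Its log2 fold change was -1.32 ± 0.28 (limma adjusted p = 0.0263), and -1.09 with replicates 2 and 3 alone (limma adjusted p = 0.0413). Without control replicate 1 it lost the call (-1.22, limma adjusted p = 0.0596).

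Factor VII starts clotting when it meets tissue factor. F7 read 0.87, 0.81 and 0.74 in controls, 1.12, 1.08 and 1.08 at MCT 270, and 0.42, 0.36 and 0.36 at MCT 330. All MCT 270 arrays were above the controls and all MCT 330 arrays below them. Neither difference passed the test, at 0.27 ± 0.15 for MCT 270 and -0.45 ± 0.19 for MCT 330 (limma adjusted p = 0.406 and 0.131).

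The 3 genes of the contact system, in which factor XII and prekallikrein activate each other and factor XII activates factor XI, did not move together. Klkb1 read 5.02, 4.93 and 4.91 in controls, 4.98, 4.80 and 4.82 at MCT 270, and 3.32, 3.49 and 3.41 at MCT 330. It was near control at the lower dose and fell to 33.8% of control at the higher one (-1.56 ± 0.20, limma adjusted p = 0.0105). F12 read 5.39, 5.58 and 5.57 in controls, 5.13, 5.14 and 5.11 at MCT 270, and 4.93, 4.89 and 4.86 at MCT 330. Its groups did not overlap, but the estimate at MCT 330 missed the threshold (-0.59 ± 0.20, limma adjusted p = 0.0801).

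F11, the third of them, read 3.74, 3.66 and 3.64 in controls, 4.20, 4.28 and 4.27 at MCT 270, and 3.61, 3.62 and 3.60 at MCT 330. It was highest at MCT 270 (0.54 ± 0.15, limma adjusted p = 0.187, unadjusted p = 0.0191). At MCT 330 it lay just under the controls, at -0.09 ± 0.19 (limma adjusted p = 0.748), and this sign turned with quantile normalization (0.16), with scaling by the array median (0.30) and with normexp background correction (0.20).

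F13b encodes the carrier subunit of factor XIII, the enzyme that cross-links fibrin. It read 4.18, 4.22 and 4.24 in controls, 4.10, 3.91 and 3.94 at MCT 270, and 2.81, 2.79 and 2.78 at MCT 330. Its probe is spotted 10 times on each array, with an SD between spots of 0.0309 to 0.0870. The MCT 330 arrays lay far below the others, at 37.7% of control (-1.41 ± 0.20, limma adjusted p = 0.0122), and the difference at MCT 270 was -0.19 ± 0.16.

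Antithrombin is the inhibitor among the 10, blocking thrombin and activated factor X. Serpinc1 read 7.41, 7.65 and 7.59 in controls, 7.12, 7.12 and 7.06 at MCT 270, and 6.69, 6.72 and 6.63 at MCT 330. The groups did not overlap, and MCT 330 lay at 55.8% of control (-0.84 ± 0.20, limma adjusted p = 0.0359). Without control replicate 2 and its repeat the call was lost (-0.74, limma adjusted p = 0.0574), and likewise without either MCT 270 sample, which left fewer samples to estimate the spread (limma adjusted p = 0.0955 in both cases). The inhibitor was neither the lowest nor the highest of the 10, whose log2 fold changes at MCT 330 ran from F5 (-1.66) to F11 (-0.09).

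**Figure D3:**
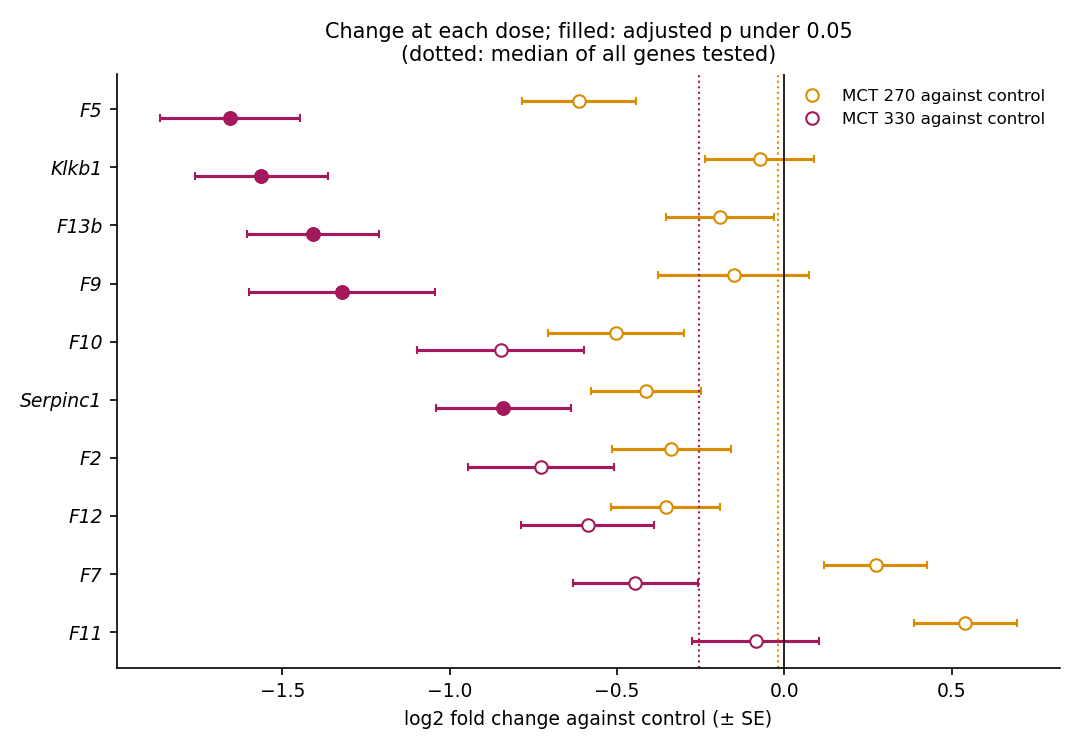
Log2 fold change against control with its SE (horizontal axis) for the 10 genes at MCT 270 and MCT 330; filled points have a limma adjusted p under 0.05 and dotted lines mark the median of all genes tested, -0.02 at MCT 270 and -0.26 at MCT 330. Filled points are seen at MCT 330, for F5, Klkb1, F13b, F9 and Serpinc1.

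At 270 mg/kg, 0 of the 10 genes and 0 of all 24808 genes (0%) passed limma's test against control, while 4613 of all genes had an unadjusted p under 0.05. At that level F5 was lower (8.79% of all genes) and F11 was higher (9.81%). The 10 estimates ran from -0.61 to 0.54 with a median of -0.27, against -0.02 over all genes. In 6 genes every MCT 270 array was below every control array (25.2% of all genes), namely F2, F5, F10, F12, F13b and Serpinc1, and in F7 and F11 every one was above (23.1%). Replicates 1 and 2 of both groups shared a scan run, and within it the median was -0.26. With the 9 arrays as separate samples, 8 of the 10 passed (6 lower and 2 higher), as did 38.5% of all genes. With scan run as a block over the 6 arrays of both groups, 4 did (3 lower and 1 higher), as did 19.1% of all genes.

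Against MCT 270, the MCT 330 sample was lower in 4 of the 10 genes, against 17.1% of all genes: Klkb1 by -1.49 ± 0.20, F13b by -1.22 ± 0.20, F9 by -1.17 ± 0.28 and F5 by -1.04 ± 0.21 (limma adjusted p = 0.0208, 0.0238, 0.0458 and 0.0331). F7 and F11 came next, at -0.72 ± 0.19 and -0.63 ± 0.19 (limma adjusted p = 0.0564 and 0.0771). F12, F10, F2 and Serpinc1 differed by -0.23 to -0.43 without passing. Leaving out either of the MCT 270 samples left 0 of the 10, and 0 of all genes, past limma's threshold, with 6236 and 7330 genes at an unadjusted p under 0.05. In all 10 genes every MCT 330 array lay below every MCT 270 array, as in 51.3% of all genes.

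By their estimates with this scaling, the 10 genes can be set out in 3 groups, though no difference at MCT 270 passed the test and 4 did between the doses. F2, F5, F10, F12 and Serpinc1 differed from control by -0.34 to -0.61 at MCT 270 and lay further below at MCT 330. With median scaling F10 and F12 lay above their MCT 270 level at MCT 330 (0.0083 and 0.12). F9, F13b and Klkb1 were also below control at MCT 270, but by less (-0.07 to -0.19), and were over 1 log2 unit lower at MCT 330. F5 too was over 1 log2 unit lower at MCT 330 than at MCT 270 (-1.04), so the line between these groups is one of degree. With quantile normalization F9 and Klkb1 lay just above control at MCT 270 (0.026 and 0.066). F7 and F11 were above control at MCT 270 and below it at MCT 330, where the sign of F11 turned as given above. Over the 5 samples the closest pair of profiles was F2 and Serpinc1, with a root mean square difference of 0.0544 log2 units after centring, and F13b and Klkb1 differed by 0.112. F5 was nearer to F13b (0.204) than to Serpinc1 (0.300), the nearest gene of its own group.

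Among 16017 other named genes, those with the smallest root mean square difference over the 5 samples were taken, 2 for each gene. Those nearest to F2 were Ndufa4 and Ndufa6, to Serpinc1 Mtch1 and Ndufv1, and to F10 Uqcrb and Phpt1. Those nearest to F5 were Mnd1 and Cxcl12, to F9 Ovch2 and Slc38a1, to F13b Bphl and Gpr161, to Klkb1 Ankub1 and Pbld2, to F12 Rsph3b and Lck, to F7 Oxr1 and Lrch1, and to F11 Mettl17 and Mrpl42. The differences ran from 0.0146 to 0.0445 log2 units.

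The 10 include 2 pairs of chromosomal neighbours, shown here through the 100 bases before the start of each gene, from RefSeq (GRCm38.p6), 5′ to 3′ on the strand of the gene. On chromosome 8, F7 lies next to F10 and F11 lies next to Klkb1, and F9, on the X chromosome, is shown as the promoter with the most matches. Capitals mark matches, on either strand, to 2 short sequence patterns typical of liver factors, CAAAGNNCA (HNF4-type) and TTGCNNAA (C/EBP-type).
F7 (chr8:13025934-13026033, plus strand): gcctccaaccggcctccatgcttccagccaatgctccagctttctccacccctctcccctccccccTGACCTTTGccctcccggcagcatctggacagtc
F10 (chr8:13037208-13037307, plus strand): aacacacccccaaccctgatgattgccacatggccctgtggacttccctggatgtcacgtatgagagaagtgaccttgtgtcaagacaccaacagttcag
F11 (chr8:45262032-45262131, minus strand): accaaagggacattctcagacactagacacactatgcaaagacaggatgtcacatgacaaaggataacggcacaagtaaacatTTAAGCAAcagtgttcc
Klkb1 (chr8:45294836-45294935, minus strand): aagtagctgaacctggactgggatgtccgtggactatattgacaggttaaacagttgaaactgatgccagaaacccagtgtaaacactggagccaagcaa
F9 (chrX:59999364-59999463, plus strand): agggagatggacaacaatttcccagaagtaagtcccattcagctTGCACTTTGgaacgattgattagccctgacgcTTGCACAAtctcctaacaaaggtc
The HNF4-type pattern stood in the 250 bases before the start in F7 and F9, as in 5.49% of 32851 promoters. The C/EBP-type pattern stood in F9, F11 and Klkb1 (9.56%), in Klkb1 at 177 bases before the start and so outside the stretch printed. Neither pattern stood in all 10 promoters, and a match describes letters, not a bound factor.

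Within an array, where scaling cancels, F11 minus Klkb1 changed against control by 0.61 at MCT 270 (arrays 0.49 to 0.75) and by 1.48 at MCT 330 (1.41 to 1.57), while the control arrays spread from -0.01 to 0.01. F7 minus F10 changed by 0.78 at MCT 270 (0.72 to 0.82) and by 0.40 at MCT 330 (0.38 to 0.44), against -0.29 to 0.26 in control arrays. F10 was taken here by its brighter probe. Its second probe changed by -1.52 at MCT 270 and by -2.05 at MCT 330, so the F7 minus F10 values depend on the probe. In both pairs and at both doses, every treated array lay outside the range of the control arrays, which are counted as 2 samples. The share of other gene pairs for which this holds was not computed.

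Gene length also varied along the list, from 8.85 kb for F12 to 68.4 kb for F5. Across the 10 genes, log10 length and the log2 fold change at MCT 330 had a Pearson r of -0.68, against -0.02 across 16975 genes. Genes are not independent replicates, they share the same 5 samples, and F5 is far longer than the rest.

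Of 20 other genes for clotting and anticoagulant proteins made in the liver, 5 fell and 2 rose at MCT 330, shares near those of all genes (24.0% and 9.48%), with a median of -0.43. F8, the cofactor of factor IX, which in the liver comes mainly from endothelial cells, differed by -2.09 ± 0.25 (limma adjusted p = 0.00972). Plg, the precursor of plasmin, differed by -1.15 ± 0.22 (limma adjusted p = 0.0219). Proc (protein C), Hrg and Apoh also fell. Among the fibrinogen genes, Fga rose by 0.94 ± 0.20 (limma adjusted p = 0.0268), and Fgb and Fgg lay at 0.18 ± 0.21 and 0.14 ± 0.21. F13a1, the catalytic subunit that F13b carries and a product of macrophages and megakaryocytes, was not well above background on any control array. It was at least 21.2-fold higher at MCT 330 (limma adjusted p = 0.00872), taking for each control array the lowest signal well above background.

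Of 12 genes for the vitamin K cycle and for secretion of clotting factors, 2 fell and 2 rose at MCT 330, where 24.0% of all genes fell and 9.48% rose. The median of these 12 was -0.23, which differs from that of all genes by 0.02. Vkorc1, the vitamin K epoxide reductase that warfarin blocks, differed by -1.54 ± 0.22 (limma adjusted p = 0.0126), and Ggcx, the carboxylase, by -0.92 ± 0.23 (limma adjusted p = 0.042). Nqo1 and Calu were higher, by 2.00 ± 0.28 and 1.16 ± 0.26. At the level of initiation and of cell surfaces, 7 of 16 genes rose and 1 fell. The protease-activated receptor F2rl1, not well above background in controls, was at least 6.34-fold higher (limma adjusted p = 0.00972). The protease that trims von Willebrand factor, Adamts13, differed by -2.13 ± 0.23. The median of this list was 0.97, and 0.30 with genes below background in controls at their bound.

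Transcription factors of hepatocytes were lower in 9 and higher in 1 of 23 genes at MCT 330 (24.0% and 9.48% of all genes), with a median of -0.68. Hnf4a, a regulator of many clotting factor genes, differed by -1.06 ± 0.22 (limma adjusted p = 0.0255), Nr1i3 by -2.39 ± 0.39 and Nr2f1 by -1.80 ± 0.20, while Cebpd, an acute-phase factor, was higher by 1.20 ± 0.24. Cebpa lay at -0.24 ± 0.30. Among 20 other abundant secreted hepatocyte proteins, 3 fell and 2 rose, with a median of -0.29, which differs from that of all genes by -0.03. Fetub and Apoa1 fell by 1.28 and 1.01, Saa1 and Orm1 rose by 4.53 and 1.61, and albumin (Alb) lay at -0.31 ± 0.22. At MCT 270, 0 genes of these lists passed.

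**Figure D4:**
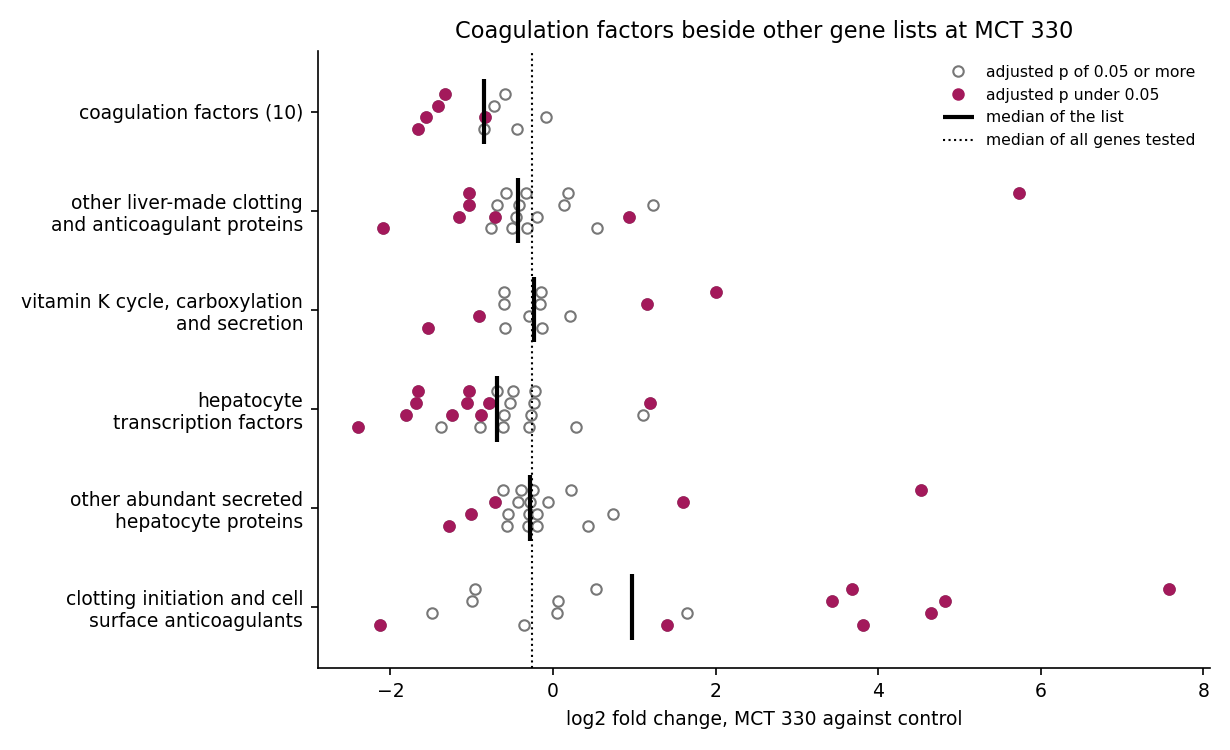
Log2 fold change of MCT 330 against control (horizontal axis), 1 point per gene, for the 10 coagulation factors and 5 other gene lists; filled points have a limma adjusted p under 0.05, bars are list medians and the dotted line is the median of all genes. The median of the 10 lay at -0.84, against -0.43 for other liver-made clotting proteins and -0.29 for other secreted hepatocyte proteins.

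The tissue label was checked against 8 hepatocyte markers, all well above background on every MCT 330 and control array. All but Cps1 are also in the lists above, so their changes are not a further observation. Of the 8 markers, 2 fell at MCT 330 (Hnf4a and Apoa1), where 24.0% of all genes fell and 9.48% rose, with a median of -0.35. Their summed signal, in multiples of the 75th percentile of the array, was 1643 to 1861 in controls, 1480 to 1782 at MCT 270 and 1308 to 1556 at MCT 330. Markers of other cells also moved. At MCT 330, 9 of 10 sinusoidal endothelium markers fell (summed signal 9.26 to 9.50, against 37.7 to 39.1 in controls), as did 5 of 7 Kupffer cell markers (9.05 to 9.22, against 21.3 to 25.1). Of 6 stellate cell markers 3 fell and 1 rose (1.14 to 1.19, against 8.10 to 8.46). Of 9 neutrophil markers 5 rose and 1 fell (219 to 247, against 14.2 to 15.0). Lcn2, which hepatocytes also make in the acute phase, carried most of that sum at MCT 330, and without it the sum was 36.8 to 38.8, against 8.89 to 9.89. The largest control signal in that remainder was Elane, whose mean log2 signal was 3.07 in controls and 2.21 at MCT 330. Of 5 monocyte and macrophage markers 4 rose (9.63 to 10.1, against 0.758 to 0.984), and of 7 megakaryocyte and platelet markers 3 rose (3.45 to 3.65, against 1.37 to 1.48). Of 5 cholangiocyte markers 1 rose (4.31 to 4.40, against 1.37 to 2.65), and of 3 erythroid markers 0 passed limma's test and 1 had an unadjusted p under 0.05 (205 to 219, against 18.6 to 65.5). Cxcr2 and Ngp among the neutrophil markers were not well above background in controls, nor were Itga2b and Gp5 of the platelet list and Krt7 of the cholangiocyte list, nor Mpo at MCT 330. The part of these shifts in the values of the coagulation factors was not tested.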

How the data were processed

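The authors' deposited values are spot intensities from 1-colour Cy3 arrays, made with Agilent Feature Extraction 11.0.1.1 on a design annotated on mm9, per the file headers. The processed intensity was used, and log2 values were computed here from these deposited intensities; the 9 miRNA arrays were not used. Of 44397 spots per array, 1377 controls were left out, as were spots marked non-uniform or population outliers. Values are log2 processed signal minus the 75th percentile of the array. Repeated spots were averaged per probe. A probe was kept if every array of some group showed it well above background, and a gene took its brightest probe, leaving 24808 genes. Transcript identifiers were matched to symbols in RefSeq for 27234 of 39429 probes, and 12195 kept the name in the file.

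Within a group, arrays that differed by no more than repeated spots were to be averaged, with a limit of 1 for the ratio over brightness classes. Replicates 2 and 3 gave 0.496 to 0.763. Replicate 1 of MCT 330 gave up to 1.13, above the limit, but was averaged in because counting it as a separate sample would make p-values smaller; the other choice is given as an alternative. Before averaging, 234 spots lying over 1 log2 unit away from the other arrays of their sample were removed. The labels give the arrays different mouse numbers, so replicate numbers do not pair animals, and deviations of same-numbered arrays correlated at 0.02 to 0.09.

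One fit over the 3 groups was made with limma 3.58.1 in R 4.3.3, with Benjamini-Hochberg adjustment over all genes and a threshold of 0.05. It was also run on simulated data with the same spread in all groups, which cannot check the spread taken over for MCT 330. The members and gene lists were chosen with earlier results of these data known. Genes of other lists were named by rule, as the 2 highest and 2 lowest changes that passed at MCT 330, named with their values; not every gene or promoter pattern so chosen is reported here. Proc, Hrg, Apoh, Fgb, Fgg, Hnf4a, Cebpa and Alb were added after their values were seen. For likeness, the rule took the 2 genes of smallest root mean square difference. The alternatives were quantile normalization, scaling by the median, normexp with offset 50, other filters and probe rules, 9 separate arrays, blocks for scan run and replicate number, and leaving out samples.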

Additional observations from a re-analysis of the deposited data

How the results depend on the processing

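The 5 calls at MCT 330 became 3 with quantile normalization, with scaling by the array median and with no filter on dim probes. They became 9 (all but F11) with 9 arrays as separate samples, with a replicate block, with scan run as a random block, and, chosen after seeing the data, with MCT 330 replicate 1 as a separate sample. Leaving out samples gave 4 to 6. Over all genes the lower calls moved too, from 24.0% to 17.5%, 13.9% and 8.76% in the first 3 of these fits and to 47.2%, 46.9%, 48.9% and 37.0% in the other 4. At MCT 270 the 0 calls became 8 with 9 separate arrays, with the replicate block and with the random block, and 4 with scan run as a block over 6 arrays. Between the doses the 4 calls became 10 with 9 separate arrays, the replicate block or the random block, 7 with MCT 330 replicate 1 separate, 1 with median scaling and 0 with no filter, and leaving out samples gave 0 to 4. Over all genes the lower calls between the doses were 17.1%, against 44.4% with 9 separate arrays, 44.1% and 46.4% with the blocks, 32.5% with replicate 1 separate, 7.63% with median scaling and 0% with no filter. The replicate numbers do not pair animals, and the replicate block changed no count among the 10 genes relative to the 9 separate arrays.

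The median of -0.84 at MCT 330 was -0.45 with quantile normalization, -0.46 with median scaling (where the median of all genes moved to 0.13), -0.50 with normexp and -1.08 with the mean over probes, and -1.002 to -0.69 leaving out samples. At MCT 270 it was -0.27, and -0.10 with quantile normalization, -0.12 with normexp and -0.37 to -0.20 leaving out samples. Between the doses it was -0.67, and -0.58 with quantile normalization, -0.32 with median scaling and -0.56 with normexp. Signs turned for F9 at MCT 270 (0.026 with quantile normalization, 0.079 with normexp, and -0.39 to 0.088 leaving out samples) and for Klkb1 at MCT 270 (0.066 with quantile normalization, and -0.16 to 0.011 leaving out samples). They also turned for F11 at MCT 330 (0.16, 0.30 and 0.20 with quantile normalization, median scaling and normexp), and between the doses with median scaling for F10 (0.0083) and F12 (0.12). The causes of these differences between settings were not tested. All 10 genes were well above background on all 9 arrays.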
